A study of Mus musculus with 30 samples.

Results

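The passenger strands of the let-7 microRNAs (miRNAs) were followed in mouse hearts after carbon black reached the lung. They were the 4 strands printed on the array as mmu-let-7a-1*, mmu-let-7b*, mmu-let-7d* and mmu-let-7f-1*, taken by those names out of 1079 mouse miRNAs. Hearts came from female C57BL/6 mice that had arrived at 5 to 6 weeks of age and had been given, by 1 intratracheal instillation of 40 µl, either 162 µg of Printex 90 or vehicle alone. Printex 90 is a commercial carbon black of nanosized particles, and the vehicle, which both arms received, was 0.9% saline with 10% cell-free lavage fluid from mice of the same strain. Mice were killed 1, 3 or 28 days later, and RNA was taken from a random heart section that held both ventricles. Signals were held for 4 vehicle and 6 Printex 90 hearts of day 1, for 6 and 4 of day 3, and for 4 and 5 of day 28, so 29 arrays in all. The series text gives 6 mice per group. One more Printex 90 heart of day 3, replicate 3, entered only through the authors' deposited value table. Each heart was labelled in 1 colour on its own array, and the arrays lay on 4 slides.

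A let-7 gene is transcribed as a hairpin whose arms are cut out as a short duplex. The arm loaded into the silencing complex is the guide strand, which is among the abundant miRNAs of differentiated tissues such as the heart and represses growth-promoting transcripts. The other arm, marked with an asterisk on this array and named 3p today, is the passenger strand, which is mostly discarded and is usually scarce. A passenger strand that is loaded would recognise targets through its own seed, bases 2 to 8, not through the seed of its guide.

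The mature sequences of the 4 strands (RefSeq, build GRCm38.p6, 5′ to 3′, seed in capitals) are shown because 3 of the 4 share a seed and the probes must tell such close relatives apart.
let-7a-1*: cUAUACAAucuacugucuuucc
let-7f-1*: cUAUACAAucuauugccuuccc
let-7b*: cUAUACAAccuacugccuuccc
let-7d*: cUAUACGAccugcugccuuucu

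The seed UAUACAA is common to let-7a-1*, let-7b* and let-7f-1*, and it stands in 5 mature mouse sequences of the RefSeq table, the others being let-7c-2-3p and miR-98-3p. The let-7d* seed, UAUACGA, stood in 1 mature mouse sequence, its own. Counted from the 5′ end, let-7d* differs from let-7b* by A7G, A12G, C20U and C22U, with the let-7b* base first, and A7G lies in the seed. The closest pair of the 4 was let-7b* and let-7f-1*, which differ by C9U and C13U over 22 bases. The farthest pair was let-7d* and let-7f-1*, with 6 differences. The sequence of let-7a-1* is identical over its 22 bases to that of let-7c-2*, which the array does not name separately, so a signal under the name let-7a-1* can come from either gene.

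The guide strands of the same hairpins carry another seed, GAGGUAG, and are shown for contrast with the strands above.
let-7a: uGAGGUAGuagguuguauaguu
let-7b: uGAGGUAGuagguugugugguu
let-7d: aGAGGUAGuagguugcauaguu
let-7f: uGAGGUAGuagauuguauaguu

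The hairpin of let-7d shows the order of the parts. It is 103 bases long, with the guide at bases 16 to 37, a loop of 32 bases between the arms, and the passenger strand at bases 70 to 91, in capitals.
let-7d hairpin: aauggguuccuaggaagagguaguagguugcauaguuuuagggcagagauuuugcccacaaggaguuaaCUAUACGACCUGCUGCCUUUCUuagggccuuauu

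The genes for let-7a-1, let-7f-1 and let-7d lie together on the minus strand of chr13:48536012-48538272, a span of 2261 bases that overlaps no other gene of the RefSeq table. Within it the passenger strands occupy chr13:48538188-48538209 (let-7a-1*), chr13:48537833-48537854 (let-7f-1*) and chr13:48536024-48536045 (let-7d*). The let-7b gene lies with let-7c-2 on the plus strand of chr15:85706603-85707403, inside the long noncoding RNA gene Lncppara. There let-7b* occupies chr15:85707379-85707400. The guides let-7a and let-7f are each made from more than one gene, so only let-7b and let-7d have a guide from a single hairpin.

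Muscle miRNAs marked the tissue as heart, with 5 of 5 heart muscle markers detected on all 29 arrays. Red cell (3 of 3 on the array), leukocyte (4 of 4), endothelial (2 of 2) and smooth muscle (2 of 2) markers were also detected on all arrays. The 6 airway epithelium and 2 brain markers were detected on none. Liver miR-122 was detected on 26 of the 29 arrays, with group means between 5.45 and 6.50 (log2), and its part in the results was not tested. In such a whole-tissue section, fewer cells of a type and less RNA per cell cannot be told apart. The share of spots well above background, called brightness here, ran from 18.4% to 27.5% per array. In hearts of day 1 its mean was 25.7% ± 1.34 (SD, n = 4) with vehicle and 23.6% ± 3.35 (n = 6) with Printex 90. In the same order it was 23.5% ± 3.58 (n = 6) and 24.2% ± 1.45 (n = 4) on day 3. For day 28 it was 24.5% ± 1.81 (n = 4) and 24.7% ± 0.63 (n = 5). One array stood apart, that of Printex 90 day 1 replicate 4. On it 106 of the 306 miRNAs tested (34.6%) had their lowest value of the 29 arrays, the most of any array. All 4 passenger strands were among them. These values were scaled on the probes detected on all arrays. Scaled instead on the 75th percentile over all probes, this array was the lowest for none of the 4. It then had 5.91 for let-7a-1*, 5.76 for let-7b*, 5.95 for let-7d* and 5.08 for let-7f-1*. The lowest values of the 29 arrays were 5.20, 5.74, 5.84 and 4.82 in that order.

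All 4 strands passed the detection filter, but they rested on unequal evidence. A probe was taken as detected where 0.5 or more of its spots on an array were well above background, and each of the 4 probes of a strand was printed in 10 spots. All 4 probes of let-7b* were detected on all 29 arrays, with 98.8% of its 1160 spots above background. For let-7d*, 2 of 4 probes were detected on all arrays and the least detected on 25, with 94.3% of spots above background. No probe of let-7f-1* was detected on all arrays. They were detected on 24 to 27 arrays, and 85.0% of spots were above background.

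The value of let-7a-1* came from 1 probe alone. Its probe 4 was detected on all 29 arrays with 95.2% of 290 spots above background, and its other 3 probes on no array, with 0.345%, 1.38% and 2.07% of spots above background. Where several probes could be compared, they ran together over the 29 arrays. Pearson's r between probe pairs lay between 0.88 and 0.96 for let-7b*, between 0.85 and 0.97 for let-7d* and between 0.77 and 0.92 for let-7f-1*, as a description over arrays that share their labelling and brightness.

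**Figure D1:**
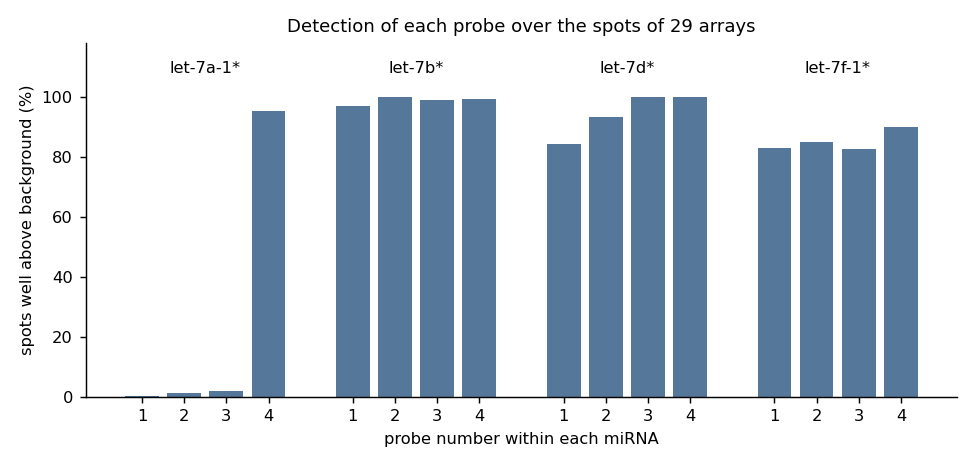
Share of spots well above background (vertical axis, percent, over the 290 spots of 29 arrays) for each of the 4 probes of each strand (horizontal axis). Probe 4 of let-7a-1* reached 95.2% while its other probes stayed at or below 2.07%; every probe of the other strands stood above 82%.

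The other 7 passenger strands of the family on the array did not pass. The let-7g* strand came nearest, with its best probe detected on 14 arrays and 20.9% of spots above background, followed by let-7i*, detected on at most 2 arrays. No probe of let-7a-2*, let-7c-1*, let-7e*, let-7f-2* or miR-98* was detected on any array by this rule. The scanning software's own flag was more lenient and marked let-7c-1* as detected on 16 arrays, let-7i* on 21 and let-7g* on 23. All 9 guide strands, by contrast, were tested.

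Undetected spots were not spread evenly over the hearts. On the dimmest array, vehicle day 3 replicate 4 (brightness 18.4%), and on vehicle day 3 replicate 6 (20.2%), no probe of let-7f-1* and 2 of 4 probes of let-7d* were detected. Printex 90 day 1 replicates 4 and 5 had 2 of 4 let-7f-1* probes detected each, and Printex 90 day 3 replicate 2 had 3. Printex 90 day 1 replicates 5 and 6 had 3 of 4 let-7d* probes detected. In the 9 hearts of day 28, all probes of let-7b*, let-7d* and let-7f-1* were detected.

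Levels are given as log2 of the signal after scaling of the arrays, with a floor at 4.08, and each value is one heart. Probes differ in how strongly they bind, so levels are compared between hearts and never between strands. The strand with the firmest detection was let-7b*. In vehicle hearts of day 1 its log2 signals were 6.13, 6.12, 6.09 and 5.77. In the 6 Printex 90 hearts of that day the lowest was 4.98, the median 6.00 and the highest 6.16. The groups overlapped: 5 of the 6 exposed hearts lay between 5.82 and 6.16, and replicate 4 lay apart at 4.98.

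On day 3 the 6 vehicle hearts had let-7b* signals from 5.51 to 6.12 with a median of 5.69. The Printex 90 hearts of day 3 were at 6.13, 5.47, 5.86 and 5.80, across the vehicle range and 1 heart on either side of it. On day 28 vehicle hearts had 6.01, 6.10, 5.54 and 5.74 and Printex 90 hearts 6.08, 6.00, 5.95, 6.37 and 5.98. All 5 exposed hearts stood above the vehicle mean of 5.85 ± 0.26 (SD, n = 4), but only 1 of them above every vehicle heart. From lowest to highest, the let-7b* group means ran from vehicle day 3 (5.76) through Printex 90 day 3 (5.82), Printex 90 day 1 (5.84), vehicle day 28 (5.85) and vehicle day 1 (6.03) to Printex 90 day 28 (6.08).

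The let-7d* strand has a seed of its own. With arrays scaled on the probes detected on all arrays, it was the most variable of the 4. Its residual SD within groups was 0.35 against a median of 0.27 over all 306 miRNAs. Its signals in vehicle hearts of day 1 were 6.42, 6.35, 6.57 and 6.04. In the Printex 90 hearts of day 1 the lowest was 5.16, the median 6.17 and the highest 6.44. Only 1 of these 6 exposed hearts lay above the vehicle mean of 6.34 ± 0.22 (SD, n = 4), and 3 lay below every vehicle heart.

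On day 3 the vehicle hearts ran from 5.42 to 6.41 for let-7d*, with a median of 5.95, and the 4 Printex 90 hearts were at 6.32, 5.62, 6.03 and 5.92, all inside that range. On day 28 vehicle hearts were at 6.31, 6.34, 5.72 and 5.93. Printex 90 hearts were at 6.32, 6.09, 6.12, 6.68 and 6.14. As for let-7b*, all 5 exceeded the vehicle mean and 1 exceeded every vehicle heart. The let-7d* group means ran from vehicle day 3 (5.91) through Printex 90 day 3 (5.97), Printex 90 day 1 (5.99), vehicle day 28 (6.07) and Printex 90 day 28 (6.27) to vehicle day 1 (6.34).

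The let-7f-1* strand shares the seed of let-7b*. Vehicle hearts of day 1 had 5.06, 5.09, 5.19 and 4.95. The Printex 90 hearts of day 1 had a lowest value of 4.30, a median of 5.20 and a highest value of 5.37. Here 3 exposed hearts lay above every vehicle heart and 1, replicate 4, lay below all of them.

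On day 3 the let-7f-1* signals of vehicle hearts ran from 4.74 to 5.21 with a median of 4.95. The 2 hearts in which no probe was detected were at 5.06 and 4.85, inside that range. Printex 90 hearts of day 3 were at 5.01, 4.60, 4.91 and 5.09. On day 28 vehicle hearts had 5.19, 4.97, 4.80 and 4.95 and Printex 90 hearts 5.33, 5.29, 5.12, 5.33 and 5.10. All 5 exposed hearts lay above the vehicle mean of 4.98 ± 0.16 (SD, n = 4), 3 of them above every vehicle heart, and the groups overlapped through vehicle replicate 1. Group means ran from Printex 90 day 3 (4.90) through vehicle day 3 and vehicle day 28 (both 4.98), vehicle day 1 (5.07) and Printex 90 day 1 (5.09) to Printex 90 day 28 (5.23).

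The let-7a-1* signal, from its single probe, varied least under that scaling, with a residual SD of 0.19. Vehicle hearts of day 1 were at 5.74, 5.71, 5.67 and 5.44, and the Printex 90 hearts of that day had a lowest value of 5.13, a median of 5.67 and a highest value of 5.75. On day 3 vehicle hearts ran from 5.26 to 5.73 with a median of 5.47, and the 4 Printex 90 hearts were at 5.64, 5.64, 5.63 and 5.56. These 4 all lay above the vehicle mean of 5.48 ± 0.17 (SD, n = 6) and none above every vehicle heart. On day 28 vehicle hearts were at 5.86, 5.82, 5.68 and 5.46 and Printex 90 hearts at 5.88, 5.51, 5.68, 5.71 and 5.34. Here 2 of 5 exposed hearts exceeded the vehicle mean, unlike the other strands. The group means ran from vehicle day 3 (5.48) through Printex 90 day 1 (5.54), Printex 90 day 3 and Printex 90 day 28 (both 5.62) and vehicle day 1 (5.64) to vehicle day 28 (5.70). Which strand varied most depended on the scaling. With arrays scaled on the 75th percentile over all probes, let-7a-1* ran from 5.20 to 6.16 and let-7d* from 5.84 to 6.36.

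For none of the 4 strands did neighbours in the order of group means differ by more than their spread. Of the 20 neighbouring pairs, 0 had a gap above the larger of their SDs, and the largest gap was 0.20. Sorting brings neighbours close, so this count cannot show that groups do not differ. The whole span of group means was widest for let-7d*, at 0.43. The groups overlapped in all 12 comparisons of Printex 90 with vehicle on a day. Of all 306 miRNAs, 0% stood without overlap on day 1 or day 3, and on day 28 0.327% stood with all exposed hearts above all vehicle hearts and 0% below.

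**Figure D2:**
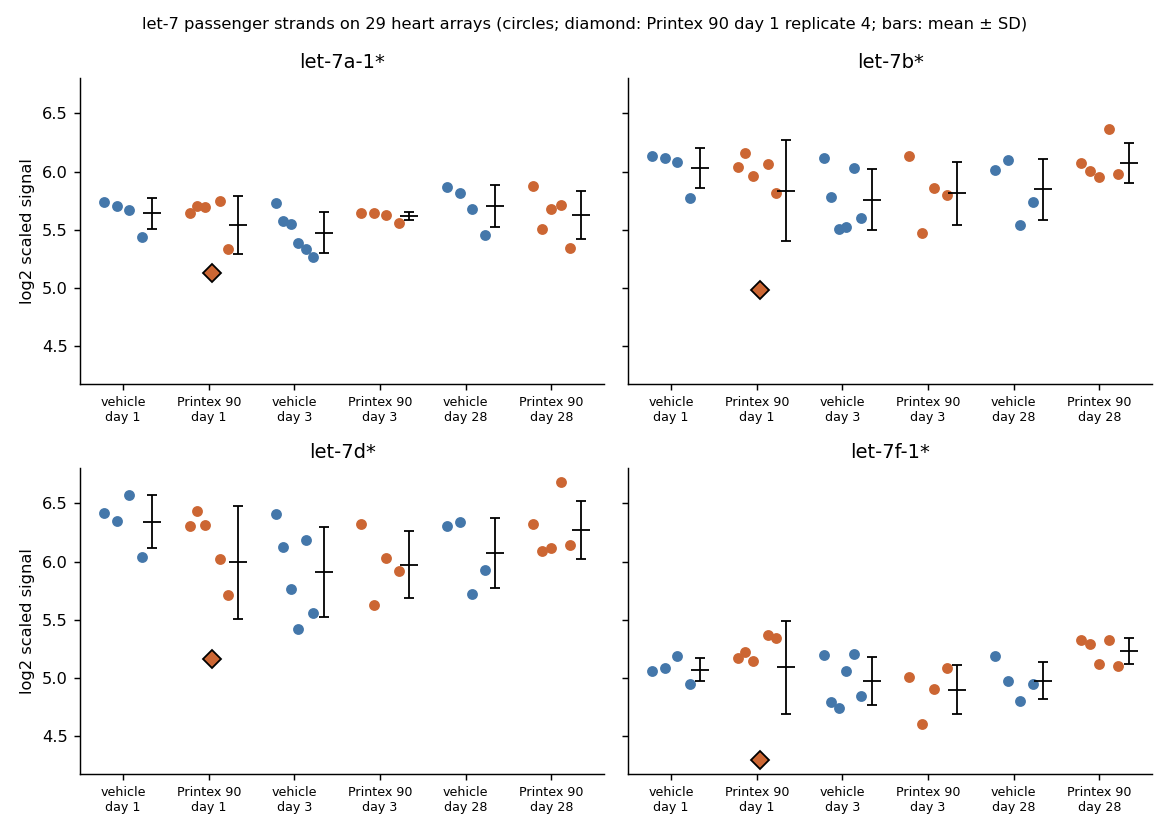
Log2 scaled signal (vertical axis) of each strand in every heart, by treatment and day (horizontal axis), with group mean ± SD as bars; blue is vehicle and orange Printex 90. The diamond marks Printex 90 day 1 replicate 4, the lowest of the 29 arrays in all 4 panels (4.30 to 5.16). Arrays were scaled on the probes detected on all arrays.

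The first question of the design was whether instilled carbon black changed cardiac miRNAs on each day. On day 1 the difference between Printex 90 and vehicle hearts was -0.35 ± 0.22 (SE) on the log2 scale for let-7d*, -0.19 ± 0.18 for let-7b*, -0.10 ± 0.12 for let-7a-1* and 0.02 ± 0.15 for let-7f-1*. None passed in limma with Benjamini-Hochberg adjustment over 306 miRNAs, with adjusted p from 0.742 (let-7d*) to 0.952 (let-7f-1*). The background was the same: 0% of the 306 were called on day 1, with 2 at an unadjusted p under 0.05. The 95% interval for let-7d* reached from 0.572-fold to 1.07-fold, and that for let-7b* from 0.675-fold to 1.14-fold.

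These day 1 differences changed when 1 heart was left out. Without Printex 90 day 1 replicate 4 they were -0.19 for let-7d*, -0.02 for let-7b*, -0.01 for let-7a-1* and 0.18 for let-7f-1*. Within slides, with 1 or 2 exposed hearts against 1 vehicle heart, they ran from -0.83 to 0.08 for let-7d*. For let-7b* they ran from -0.62 to 0.17 over 4 slides. They ran from -0.26 to 0.10 for let-7a-1* and from -0.46 to 0.41 for let-7f-1*, so no strand kept one sign on all slides. The let-7d* difference stayed below 0 under the other processing settings tried, whereas that of let-7b* turned to 0.020 under quantile normalization and 0.022 under normexp. With brightness as a covariate the day 1 differences were -0.15 ± 0.17 (SE) for let-7d*, -0.081 ± 0.17 for let-7b*, -0.037 ± 0.12 for let-7a-1* and 0.037 ± 0.16 for let-7f-1*.

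On day 3 the exposure difference was 0.14 ± 0.12 (SE) for let-7a-1*, 0.06 ± 0.22 for let-7d*, 0.05 ± 0.18 for let-7b* and -0.07 ± 0.15 for let-7f-1*. The adjusted p in limma was 0.999 for each, and 0% of the 306 miRNAs were called, with 1 at an unadjusted p under 0.05. Within 3 slides let-7a-1* ran from -0.01 to 0.26, let-7b* from -0.14 to 0.34, let-7d* from -0.29 to 0.60 and let-7f-1* from -0.19 to 0.06. Those slides held 1 or 2 hearts per group. Under quantile normalization and under a percentile over all probes, the small differences of let-7b* and let-7d* on this day turned below 0.

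On day 28 let-7f-1* was higher in exposed hearts by 0.25 ± 0.16 (SE), let-7b* by 0.23 ± 0.19 and let-7d* by 0.20 ± 0.23, while let-7a-1* was at -0.08 ± 0.13. None passed, with an adjusted p of 0.906 for each in limma, and again 0% of the 306 miRNAs were called, with 1 at an unadjusted p under 0.05. The intervals reached 1.54-fold for let-7b*, 1.59-fold for let-7d* and 1.49-fold for let-7f-1*, with lower ends of 0.894, 0.826 and 0.951. For these 3 strands the sign held under the processing settings tried, with lowest values of 0.056 for let-7b*, 0.0045 for let-7d* and 0.030 for let-7f-1*. The sizes moved with single hearts: without vehicle day 28 replicate 3 the difference was 0.13 for let-7b* and 0.080 for let-7d*, and without Printex 90 day 28 replicate 4 it was 0.095 for let-7d*. The difference was above 0 within each of 3 slides for let-7b* (0.07 to 0.25), let-7d* (0.02 to 0.22) and let-7f-1* (0.14 to 0.32). Slides 2 and 3 set 1 exposed heart against 1 vehicle heart, and slide 4 set 2 against 2. The strands were read in the same hearts. All 4 probes of each of these strands were higher in exposed hearts, by 0.19 to 0.28 for let-7b*, 0.12 to 0.30 for let-7d* and 0.20 to 0.28 for let-7f-1*. Probes of a strand share their RNA and are not replicates.

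Averaged over the days, the exposure difference was -0.03 ± 0.13 (SE) for let-7d*, -0.01 ± 0.07 for let-7a-1*, 0.03 ± 0.11 for let-7b* and 0.07 ± 0.09 for let-7f-1*, with an adjusted p in limma of 0.994 for each. No miRNA of the 306 (0%) was called for this mean, and 0 had an unadjusted p under 0.05. The exposure difference of day 28 exceeded that of day 1 by 0.55 ± 0.32 for let-7d*, 0.42 ± 0.26 for let-7b*, 0.23 ± 0.22 for let-7f-1* and 0.02 ± 0.17 for let-7a-1*. The smallest adjusted p of the 4 in limma was 0.484, again against 0% called. Without Printex 90 day 1 replicate 4 these were 0.38 for let-7d*, 0.25 for let-7b*, 0.07 for let-7f-1* and -0.06 for let-7a-1*. The differences between days 3 and 1 and between days 28 and 3 lay between -0.22 and 0.41, with adjusted p of 0.735 or more and 0% called.

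As a group the 4 strands had a median exposure difference of -0.14 on day 1, 0.06 on day 3 and 0.21 on day 28. The median over all 306 miRNAs was -0.07, 0.03 and 0.01 on the same days. Of the 4 strands, 1, 3 and 3 were higher in exposed hearts on days 1, 3 and 28, beside 35.3%, 63.7% and 54.9% of all miRNAs tested. The 9 guide strands had medians of 0.06, 0.06 and -0.00044, with 9, 9 and 4 of them higher. For 5 miRNAs that neighbour let-7 genes elsewhere in the genome (miR-99a, miR-99b, miR-100, miR-125a-5p and miR-125b-5p), the medians were -0.02, 0.0024 and -0.05. None of these guides or neighbours was called on any day. The 3 day contrasts share no hearts, but the members of each list share every array.

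**Figure D3:**
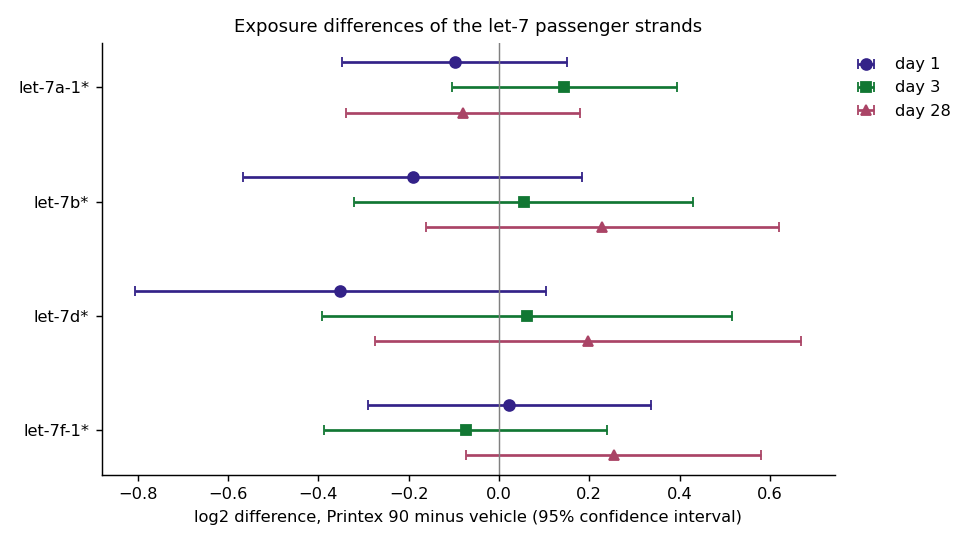
Log2 difference between Printex 90 and vehicle hearts (horizontal axis, point estimate with the 95% confidence interval from limma) for each strand (rows) on days 1, 3 and 28 (symbols). All 12 intervals cross 0, and the lowest end is that of let-7d* on day 1, at -0.81.

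Time after instillation gave no called difference for a passenger strand either. Between day 1 and day 3, vehicle hearts differed by -0.43 ± 0.22 (SE) for let-7d*, -0.27 ± 0.18 for let-7b*, -0.17 ± 0.12 for let-7a-1* and -0.10 ± 0.15 for let-7f-1*. The smallest adjusted p in limma was 0.439, with 0% of the 306 called and 18 at an unadjusted p under 0.05. The 2 dimmest vehicle arrays belonged to day 3, and brightness averaged 23.5% ± 3.58 (SD, n = 6) in that group against 25.7% ± 1.34 (n = 4) on day 1. With brightness as a covariate the differences were -0.22 ± 0.17 for let-7d*, -0.15 ± 0.17 for let-7b*, -0.10 ± 0.12 for let-7a-1* and -0.08 ± 0.16 for let-7f-1*.

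Between days 1 and 28, vehicle hearts differed by -0.27 ± 0.24 (SE) for let-7d* and by -0.18 ± 0.20 for let-7b*. The let-7f-1* difference was -0.09 ± 0.17 and that of let-7a-1* 0.06 ± 0.13. In this comparison 1.96% of the 306 miRNAs were called and no passenger strand, with an adjusted p in limma of 0.755 or more. Between days 3 and 28 the largest vehicle difference was 0.23 ± 0.12 for let-7a-1* (adjusted p 0.826 in limma), where 0.654% of all miRNAs were called.

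In Printex 90 hearts the largest time difference was that of let-7f-1*, higher by 0.33 ± 0.16 (SE) on day 28 than on day 3. Its unadjusted limma p was 0.0468, the smallest of any passenger strand in the 13 comparisons, and its adjusted p was 0.687, with 0.327% of the 306 called. In the same comparison let-7d* was higher by 0.30 ± 0.23, let-7b* by 0.26 ± 0.19 and let-7a-1* by 0.01 ± 0.13. From day 1 to day 28 the differences were 0.28 ± 0.21 for let-7d*, 0.24 ± 0.17 for let-7b*, 0.14 ± 0.14 for let-7f-1* and 0.08 ± 0.11 for let-7a-1*. There 1.31% of all miRNAs were called and the smallest adjusted p of a passenger strand in limma was 0.643. From day 1 to day 3 they lay between -0.19 and 0.08, with 0% called.

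Each passenger strand was then set against the guide named for its hairpin within the same heart, as the log2 passenger signal minus the log2 guide signal. Because guides and passengers are read by different probes, only the change of this difference between groups was used. The let-7a and let-7f guides also come from other hairpins, and the let-7a-1* signal can come from that of let-7c-2. Only for let-7b* and let-7d* do both signals belong to a single hairpin. On day 1 the change from vehicle to Printex 90 hearts was -0.43 for let-7d*, -0.25 for let-7b*, -0.16 for let-7a-1* and -0.01 for let-7f-1*. On the array of Printex 90 day 1 replicate 4 the guides let-7a (13.38), let-7b (12.08), let-7d (12.08) and let-7f (13.48) had the highest values of their group, while the passenger strands had the lowest. Without that heart the changes were -0.20 for let-7d*, -0.04 for let-7b*, -0.02 for let-7a-1* and 0.20 for let-7f-1*.

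On day 3 the change of passenger minus guide was -0.14 for let-7f-1*, with 0 of 4 exposed hearts above the vehicle mean. It was 0.07 for let-7a-1*, 0.0030 for let-7b* and 0.0012 for let-7d*. On day 28 it was 0.27 for let-7f-1*, 0.20 for let-7d* and 0.19 for let-7b*, with 4 of 5 exposed hearts above the vehicle mean for each, and -0.09 for let-7a-1*. Within 1 of the 3 slides, slide 3, the day 28 change was below 0 for let-7b* (-0.25), let-7d* (-0.18) and let-7f-1* (-0.010). Slide 3 held 1 exposed heart and 1 vehicle heart of that day. In 12 exact two-sided permutation tests the smallest p was 0.159, for let-7f-1* on day 28, and its adjusted value was 0.889. The smallest p these tests could give was 0.00952 on days 1 and 3 and 0.0159 on day 28.

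Over the 29 arrays the passenger strands varied together when arrays were scaled on the probes detected everywhere. Under other scalings the closeness changed, and for some pairs the sign. With arrays scaled on the probes detected everywhere, let-7b* and let-7d*, which come from different chromosomes, had a Pearson r of 0.93 and a Spearman rho of 0.91 (permutation p 1e-05 for both, the smallest the permutations can give; adjusted p 7e-05 and 0.00014 over 14 relations). The r was 0.91 without the 2 farthest arrays, 0.93 after group means were removed, and 0.78 to 0.97 within the 4 slides. When arrays were scaled on the 75th percentile over all probes, the same r was 0.23 (adjusted p 0.288); it was 0.72 in the authors' deposited value table and 0.99 without scaling.

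**Figure D4:**
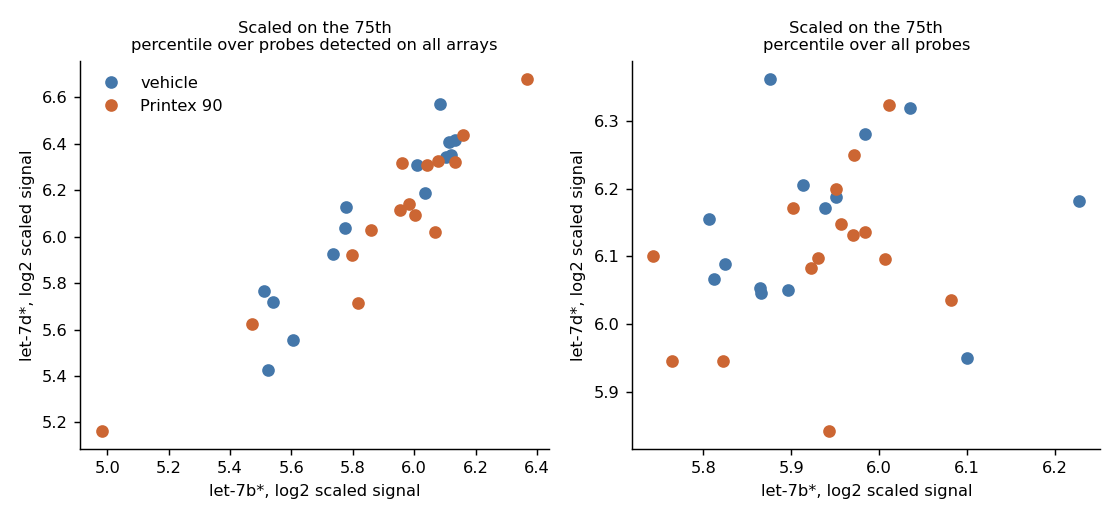
Log2 scaled signal of let-7d* (vertical axis) against let-7b* (horizontal axis), each point one of 29 arrays, blue for vehicle and orange for Printex 90. With the percentile taken over probes detected on all arrays (left) r was 0.93, and over all probes (right) 0.23.

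The r of let-7b* with let-7f-1* was 0.82 (rho 0.65, permutation p 1e-05, adjusted 7e-05), with 0.75 to 0.92 within slides, and 0.57 under the percentile over all probes. In the authors' deposited value table it was 0.07. The let-7a-1* signal can also come from let-7c-2 on chromosome 15, so its pairs cannot be assigned to a cluster. Of the pairs named for the chromosome 13 cluster, let-7a-1* and let-7d* had an r of 0.69 (rho 0.66, within slides 0.29 to 0.94). For let-7d* and let-7f-1* it was 0.65 (rho 0.50, within slides 0.27 to 0.84) and for let-7a-1* and let-7f-1* 0.42 (rho 0.38). These pairs had adjusted permutation p-values of 0.00014, 0.000644 and 0.0346. The last relation rested on 2 arrays, falling to 0.11 without them, and it did not hold on slide 4 (-0.06). Under the percentile over all probes the first 2 turned to -0.15 and -0.47. The pair let-7a-1* and let-7b* had an r of 0.63 (rho 0.65, adjusted permutation p 0.000747), 0.43 without the 2 farthest arrays and 0.22 under the percentile over all probes.

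Brightness moved with the levels to different degrees. The let-7d* signal had an r of 0.71 with brightness (rho 0.76, adjusted permutation p 0.00014), 0.73 without the 2 farthest arrays and 0.53 to 0.93 within slides, beside a median r of 0.16 over all 306 miRNAs. For let-7b* the r was 0.50 (rho 0.57, adjusted p 0.0113) and for let-7a-1* 0.43 (rho 0.41, adjusted p 0.0307), but on at least 1 slide each relation was below 0 (-0.08 and -0.29 at the lowest). Of all 306 miRNAs, 36.3% had an r with brightness above that of let-7b*, so relations of this size were common. The let-7f-1* signal had an r of 0.11 (rho 0.10, adjusted permutation p 0.583). Under the percentile over all probes these became 0.52 for let-7d*, -0.50 for let-7b*, -0.52 for let-7a-1* and -0.86 for let-7f-1*, so only that of let-7d* kept its sign.

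Passenger and guide levels showed no relation that held within slides. For let-7a-1* and let-7a the r was -0.50 (rho -0.44, adjusted permutation p 0.0113) and -0.37 without the 2 farthest arrays. Within slides it ran from -0.35 to 0.42, and without scaling it was 0.72. For let-7b*, let-7d* and let-7f-1* with their guides it was -0.16, -0.18 and -0.17, with rho of -0.21, -0.14 and -0.10 and adjusted permutation p of 0.443 for each r.

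By Spearman correlation over the 29 arrays, the levels most like let-7d* were those of miR-1894-5p (rho 0.99), miR-669i (0.98) and miR-297a* (0.97), with let-7b* at rank 60, let-7a-1* at 105 and let-7f-1* at 111. For let-7b* they were miR-3102-3p.2 (0.96), miR-3061-3p (0.93) and miR-335-3p (0.93), with let-7d* at rank 7. The let-7f-1* signal was nearest to miR-3092 (0.94), miR-291b-5p (0.74) and miR-3069-3p (0.65), with let-7b* at rank 4. That of let-7a-1* was nearest to miR-5107 (0.83), miR-511-5p (0.75) and miR-335-3p (0.75). The median rho with all other miRNAs tested lay between 0.09 and 0.16. These miRNAs were picked for the highest rho under the first scaling, so some fall under another comes with the choice. Under the percentile over all probes each rho with these nearest miRNAs was lower. In the order given they were 0.86, 0.79 and 0.80 for let-7d* and 0.70, 0.38 and 0.42 for let-7b*. They were 0.90, 0.35 and 0.40 for let-7f-1* and 0.62, -0.20 and -0.00099 for let-7a-1*.

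The Printex 90 heart of day 3 without a scanner signal, replicate 3, could be placed only in the authors' deposited value table of log2 intensities, whose scaling is not stated. There it had 6.07 for let-7a-1*, above the other 4 hearts of its group (5.98 to 6.02). It had 6.73 for let-7b*, below the others (6.76 to 6.97), 6.81 for let-7d* (others 6.82 to 6.98) and 6.33 for let-7f-1* (others 6.34 to 6.47). In that table the whole range over 30 hearts was 0.15 for let-7a-1*, 0.38 for let-7b*, 0.43 for let-7d* and 0.26 for let-7f-1*, so its differences are on a narrower scale than those above.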

How the data were processed

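RNA of 30 hearts was hybridised to 1-colour Agilent miRNA arrays. Per the file headers, the authors quantified scans with Feature Extraction 10.7.3.1, and the deposited scanner files give a background-subtracted, detrended signal intensity per spot. The authors' deposited value table gives log2 intensity per miRNA and served as an alternative. Its lowest rank correlation with pixel medians was 0.983, its column medians were 5.78 to 5.82, and its scaling is not stated. Signal was held for 29 arrays, not the 30 planned, and no spot was saturated (0). Outlying spots (2.85% to 9.32%) were left out and spots of a probe averaged. Scaling used each array's 75th percentile over 418 probes that every array detected; values were floored at 16.9 (4.08 on the log2 scale) and taken to log2. Probes detected on at least 4 arrays of a group were averaged per miRNA, leaving 306 miRNAs. One mean per group was fitted in limma 3.58.1 (R 4.3.3), with 13 two-sided contrasts and Benjamini-Hochberg adjustment at 0.05. The fit was tested on simulated data with independent noise and planted changes larger than any exposure or time difference of a strand. That test gives no measure of power for differences of the size reported. Correlations used 100000 permutations. Strands on an array share its labelling and scaling, which a permutation p-value does not allow for. The number of arrays limits precision. Labels do not number replicates, so numbers follow deposit order and pair nothing. Slides, read from the array identifiers, were tested as a batch. Sequences come from RefSeq (GRCm38.p6), matched by name for 4 of 4 strands. The members, lists and tests were chosen with earlier results of these data known. Named beside the 4 strands were the family's other passenger and guide strands, 5 neighbours of let-7 genes, and the 3 miRNAs nearest to each strand by Spearman's rho. Alternatives covered scaling, background, probe choice, floor, filter, slide, brightness, array weights and single arrays; 2, the value table with 30 samples and the nearest miRNAs under another scaling, were chosen after seeing the data.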

Additional observations from a re-analysis of the deposited data

Results flagged for a closer look

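Within 24 sets, each of 1 strand in 1 group, 3 values lay far from the others of their group by Dixon's test. Chance alone meets the criterion in about 1 in 20 sets, a rate for independent sets. The 4 strands were read on the same arrays, so the 3 flags are not independent. The heart of Printex 90 day 1 replicate 4 had a log2 signal of 4.98 for let-7b*, with the nearest of its group at 5.82, a gap of 0.709 of the group's range against a critical 0.625. The same heart had 4.30 for let-7f-1*, with the nearest at 5.15, a gap of 0.793 of the range. For let-7d* and let-7a-1* it was also the lowest of its group without meeting the criterion. Vehicle day 1 replicate 4 had 5.77 for let-7b*, with the nearest at 6.09, a gap of 0.866 of the range against a critical 0.829. No difference in exposure between days passed the test in limma for any of the 4 strands. The flags were set with arrays scaled on the probes detected on all arrays. Under the percentile over all probes, Printex 90 day 1 replicate 4 had 5.76 for let-7b* and 5.08 for let-7f-1*. It was the lowest of its group for neither. Vehicle day 1 replicate 4 stayed the lowest of its group for let-7b*, at 5.82.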

How the results depend on the processing

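Under the 16 planned or added settings other than leaving out arrays, no exposure difference of a passenger strand passed the threshold in limma. The 3 values that passed were those of let-7b* (-0.43), let-7d* (-0.58) and let-7f-1* (-0.28) for vehicle hearts between days 1 and 3 under array weights, a fit that did not converge and that called 103 miRNAs there. Slide as a fixed or random block, no filter, fitting only the compared groups and requiring detection on all arrays turned no sign. The last removed let-7f-1*, and the mean of the days could not be fitted with only the compared groups. The remaining settings turned signs of differences that passed in neither setting, and the cause was not tested. The median of all miRNAs moved by scaling too, from -0.066 to 0.11 for exposure on day 1 and from 0.014 to -0.16 on day 28 when the percentile ran over all probes. No paired analysis was possible because the labels give no replicate numbers that groups share. Normexp started from median pixel signals, not means as planned. Spots at or near background give no order of levels, and no probe of let-7f-1* was detected on all 29 arrays.

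The log2 differences with a turned sign were these, with the comparison in parentheses. For let-7a-1*, the percentile over all probes gave 0.075 (exposure on day 1), -0.022 (exposure, day 3 minus day 1), -0.33 (exposure, day 28 minus day 1), 0.14 (vehicle, day 3 minus day 1), -0.087 (Printex 90, day 28 minus day 1) and -0.21 (Printex 90, day 28 minus day 3). Quantile normalization gave 0.083 (exposure on day 1), -0.050 (exposure, day 3 minus day 1), -0.29 (exposure, day 28 minus day 1), 0.13 (vehicle, day 3 minus day 1), -0.087 (Printex 90, day 28 minus day 1) and -0.17 (Printex 90, day 28 minus day 3). Normexp gave 0.082 (exposure on day 1), 0.031 (the mean exposure), -0.072 (exposure, day 3 minus day 1), -0.082 (exposure, day 28 minus day 1), 0.055 (vehicle, day 3 minus day 1) and -0.017 (Printex 90, day 3 minus day 1). The series value table gave -0.037 (exposure on day 3), 0.0056 (exposure on day 28), -0.0049 (exposure, day 3 minus day 1), 0.043 (exposure, day 28 minus day 3), -0.017 (vehicle, day 28 minus day 1) and -0.038 (Printex 90, day 3 minus day 1). That table with 30 samples gave -0.023 (exposure on day 3), 0.0056 (exposure on day 28), 0.028 (exposure, day 28 minus day 3), -0.017 (vehicle, day 28 minus day 1) and -0.023 (Printex 90, day 3 minus day 1). The brightness covariate gave -0.050 (exposure, day 28 minus day 1) and -0.011 (Printex 90, day 28 minus day 3). Array weights gave -0.063 (exposure, day 28 minus day 1) and -0.036 (Printex 90, day 3 minus day 1). No scaling gave -0.11 (vehicle, day 28 minus day 1) and -0.12 (Printex 90, day 28 minus day 3).

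For let-7b*, quantile normalization gave 0.020 (exposure on day 1), -0.040 (exposure on day 3), -0.060 (exposure, day 3 minus day 1), 0.027 (vehicle, day 3 minus day 1) and -0.040 (vehicle, day 28 minus day 3). Normexp gave 0.022 (exposure on day 1), -0.015 (exposure on day 3) and -0.037 (exposure, day 3 minus day 1). The percentile over all probes gave -0.036 (exposure on day 3), -0.018 (exposure, day 3 minus day 1), 0.041 (vehicle, day 3 minus day 1), -0.043 (vehicle, day 28 minus day 3) and 0.022 (Printex 90, day 3 minus day 1). No scaling gave -0.013 (the mean exposure), -0.013 (exposure, day 28 minus day 3) and 0.060 (Printex 90, day 3 minus day 1). Array weights gave -0.12 (exposure, day 28 minus day 3). The total gene signal gave 0.053 (Printex 90, day 3 minus day 1). The brightest probe gave 0.029 (Printex 90, day 3 minus day 1). The series value table gave 0.0081 (Printex 90, day 3 minus day 1).

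For let-7d*, the percentile over all probes gave -0.020 (exposure on day 3) and 0.024 (Printex 90, day 3 minus day 1). Quantile normalization gave -0.0071 (exposure on day 3). Normexp gave -0.037 (exposure on day 3) and 0.012 (the mean exposure). The series value table gave -0.023 (exposure on day 3) and 0.021 (Printex 90, day 3 minus day 1). That table with 30 samples gave -0.040 (exposure on day 3) and 0.0032 (Printex 90, day 3 minus day 1). The brightness covariate gave -0.0059 (exposure on day 3) and 0.0057 (the mean exposure). Array weights gave 0.017 (the mean exposure), -0.11 (exposure, day 28 minus day 3) and -0.048 (Printex 90, day 28 minus day 1). No scaling gave -0.0048 (exposure, day 28 minus day 3) and 0.048 (Printex 90, day 3 minus day 1). The total gene signal gave 0.052 (Printex 90, day 3 minus day 1).

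For let-7f-1*, no scaling gave -0.17 (exposure on day 1), 0.035 (exposure on day 3) and 0.20 (exposure, day 3 minus day 1). The total gene signal gave -0.057 (exposure on day 1), 0.11 (exposure on day 3) and 0.16 (exposure, day 3 minus day 1). The brightest probe gave -0.0046 (exposure on day 1) and -0.041 (vehicle, day 28 minus day 3). Array weights gave 0.10 (exposure on day 3) and 0.050 (exposure, day 3 minus day 1). The percentile over all probes gave -0.12 (exposure, day 28 minus day 1), 0.21 (vehicle, day 3 minus day 1), 0.085 (vehicle, day 28 minus day 1), -0.13 (vehicle, day 28 minus day 3) and -0.030 (Printex 90, day 28 minus day 1). Quantile normalization gave -0.21 (exposure, day 28 minus day 1), 0.25 (vehicle, day 3 minus day 1), 0.14 (vehicle, day 28 minus day 1), -0.11 (vehicle, day 28 minus day 3) and -0.075 (Printex 90, day 28 minus day 1). Normexp gave -0.015 (exposure, day 28 minus day 1), 0.089 (vehicle, day 3 minus day 1), 0.059 (vehicle, day 28 minus day 1) and -0.030 (vehicle, day 28 minus day 3). The series value table gave -0.041 (exposure, day 28 minus day 1), 0.050 (vehicle, day 3 minus day 1), 0.026 (vehicle, day 28 minus day 1), -0.024 (vehicle, day 28 minus day 3) and -0.015 (Printex 90, day 28 minus day 1). That table with 30 samples gave -0.041 (exposure, day 28 minus day 1), 0.050 (vehicle, day 3 minus day 1), 0.026 (vehicle, day 28 minus day 1), -0.024 (vehicle, day 28 minus day 3) and -0.015 (Printex 90, day 28 minus day 1). A floor at the 5th percentile gave -0.020 (vehicle, day 28 minus day 3). The brightness covariate gave -0.0033 (vehicle, day 28 minus day 3).

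Differences within slides that moved by more than the residual SD were these. Each rests on 1 or 2 hearts per group. On slide 1 let-7b* was at -0.62 for exposure on day 1, let-7d* was at -0.83 for exposure on day 1, let-7d* was at 0.60 for exposure on day 3 and let-7f-1* was at -0.46 for exposure on day 1. On slide 2 let-7a-1* was at 0.10 for exposure on day 1, let-7b* was at 0.17 for exposure on day 1 and let-7f-1* was at 0.41 for exposure on day 1. On slide 3 let-7d* was at -0.29 for exposure on day 3. On slide 4 let-7d* was at 0.084 for exposure on day 1. For let-7a-1* minus its guide the values were 0.043 on day 1 with quantile normalization, 0.038 on day 1 with normexp, 0.23 on day 1 within slide 2, -0.062 on day 3 with quantile normalization, -0.079 on day 3 with normexp and -0.091 on day 3 with the series value table. For let-7b* minus its guide the values were 0.30 on day 1 within slide 2, -0.059 on day 3 with quantile normalization, -0.076 on day 3 with normexp and -0.25 on day 28 within slide 3. For let-7d* minus its guide the values were -0.038 on day 3 with quantile normalization, -0.046 on day 3 with no scaling, -0.10 on day 3 with normexp, -0.047 on day 3 with the brightest probe and -0.024 on day 3 with a floor at the 5th percentile. For let-7f-1* minus its guide the values were 0.26 on day 1 with quantile normalization, 0.10 on day 1 with normexp, 0.072 on day 1 with a floor at the 5th percentile, -0.58 on day 1 within slide 1, 0.56 on day 1 within slide 2, -0.38 on day 3 within slide 1 and -0.010 on day 28 within slide 3.

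Pearson's r under the percentile over all probes was -0.52 (let-7a-1* with brightness), -0.50 (let-7b* with brightness), -0.86 (let-7f-1* with brightness), 0.50 (let-7a-1* with guide let-7a), -0.60 (let-7d* with guide let-7d), 0.41 (let-7f-1* with guide let-7f), 0.22 (let-7b* with let-7a-1*), -0.15 (let-7d* with let-7a-1*), 0.38 (let-7f-1* with let-7a-1*), 0.23 (let-7d* with let-7b*) and -0.47 (let-7f-1* with let-7d*). Pearson's r without scaling was 0.86 (let-7f-1* with brightness), 0.72 (let-7a-1* with guide let-7a), 0.68 (let-7b* with guide let-7b), 0.67 (let-7d* with guide let-7d) and 0.64 (let-7f-1* with guide let-7f). Pearson's r in the series value table was 0.31 (let-7a-1* with brightness), 0.25 (let-7b* with brightness), 0.38 (let-7d* with brightness), -0.74 (let-7f-1* with brightness), -0.53 (let-7d* with guide let-7d), 0.53 (let-7f-1* with guide let-7f), 0.39 (let-7b* with let-7a-1*), -0.064 (let-7f-1* with let-7a-1*), 0.067 (let-7f-1* with let-7b*) and -0.13 (let-7f-1* with let-7d*).

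The number of miRNAs called was 0 for every exposure comparison, 6 for vehicle day 28 minus day 1, 2 for vehicle day 28 minus day 3, 4 for Printex 90 day 28 minus day 1 and 1 for Printex 90 day 28 minus day 3. For exposure on day 1 it was 652 with no filter. For exposure on day 3 it was 1 with array weights. For exposure, day 3 minus day 1 it was 652 with no filter. For exposure, day 28 minus day 1 it was 654 with no filter. For vehicle, day 3 minus day 1 it was 655 with no filter and 103 with array weights. For vehicle, day 28 minus day 1 it was 1 with the percentile over all probes, 3 with quantile normalization, 0 with no scaling, 3 with normexp, 2 with the series value table, 2 with that table with 30 samples, 671 with no filter, 11 with array weights and 2 with only the compared groups. For vehicle, day 28 minus day 3 it was 1 with the percentile over all probes, 1 with quantile normalization, 0 with no scaling, 0 with normexp, 5 with the total gene signal, 1 with the brightest probe, 1 with the series value table, 1 with that table with 30 samples, 0 with a floor at the 5th percentile, 4 with slide as a fixed block, 4 with slide as a random block, 6 with array weights and 1 with only the compared groups. For Printex 90, day 28 minus day 1 it was 1 with the percentile over all probes, 1 with quantile normalization, 0 with no scaling, 0 with normexp, 7 with the total gene signal, 2 with the brightest probe, 1 with the series value table, 1 with that table with 30 samples, 11 with array weights and 1 with only the compared groups. For Printex 90, day 28 minus day 3 it was 0 with no scaling, 0 with normexp, 0 with a floor at the 5th percentile, 2 with no filter, 0 with detection on all arrays, 2 with slide as a fixed block, 14 with array weights and 0 with only the compared groups. Without a filter the 5 counts from 652 to 671 all involve vehicle hearts of day 1. They exceed the 306 miRNAs that passed the filter, so they include miRNAs that failed it. Some of those did not vary, such as let-7a-2*, whose probes stood at the floor on all 29 arrays. These counts are no measure of changed miRNAs, and their cause was not tested.

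Leaving out 1 array at a time made no passenger strand pass, and it turned a sign or moved a count as follows. let-7a-1* ran from -0.038 to 0.017 (the mean exposure), -0.065 to 0.089 (exposure, day 28 minus day 1), -0.0039 to 0.14 (vehicle, day 28 minus day 1), -0.0073 to 0.12 (Printex 90, day 3 minus day 1), -0.0017 to 0.15 (Printex 90, day 28 minus day 1) and -0.058 to 0.076 (Printex 90, day 28 minus day 3). let-7b* ran from -0.050 to 0.17 (exposure on day 3), -0.0042 to 0.088 (the mean exposure) and -0.19 to 0.093 (Printex 90, day 3 minus day 1). let-7d* ran from -0.054 to 0.18 (exposure on day 3), -0.070 to 0.025 (the mean exposure) and -0.19 to 0.097 (Printex 90, day 3 minus day 1). let-7f-1* ran from -0.033 to 0.18 (exposure on day 1), -0.14 to 0.026 (exposure on day 3), -0.26 to 0.0035 (exposure, day 3 minus day 1), -0.067 to 0.062 (vehicle, day 28 minus day 3) and -0.021 to 0.19 (Printex 90, day 28 minus day 1). The number of miRNAs called ran from 3 to 8 (vehicle, day 28 minus day 1), 1 to 5 (vehicle, day 28 minus day 3), 1 to 4 (Printex 90, day 28 minus day 1) and 1 to 2 (Printex 90, day 28 minus day 3). let-7a-1* minus its guide ran from -0.012 to 0.14 (exposure on day 3) and -0.28 to 0.037 (exposure on day 28). let-7b* minus its guide ran from -0.099 to 0.088 (exposure on day 3). let-7d* minus its guide ran from -0.11 to 0.10 (exposure on day 3). let-7f-1* minus its guide ran from -0.097 to 0.20 (exposure on day 1). The counts moved by over 1.5 times without 19 of the arrays in turn for Printex 90 day 28 minus day 1 and without 16 for vehicle day 28 minus day 3. They did so only without vehicle day 28 replicate 4 for vehicle day 28 minus day 1, and only without Printex 90 day 1 replicate 5 for Printex 90 day 28 minus day 3.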
